A study of Mus musculus with 12 samples.

Results

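The genes described here are 53 genes of DNA replication and cell division, chosen by symbol from a list and all found among the 24421 entries of the count table. Tibialis anterior muscle, a hindlimb muscle, was taken from 6 C57Bl/6 mice (WT) and 6 mdx/mTR mice, and its RNA was sequenced. All mice were males and 4 months old. Mice of the mdx strain carry a mutation of Dmd that prevents normal dystrophin production, and mTR is a name of the RNA component of telomerase. The labels do not state the generation of the telomerase allele, the background strain of the mdx/mTR mice or a batch, so genotype and strain background cannot be told apart. They number the mice within each group but say nothing of litters, and p-values measure the spread between these samples.

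By their textbook roles, 19 members act in DNA replication, 23 in mitosis, 7 in the G1 phase and its exit, and 4 across several phases. A dividing cell first loads the Mcm helicase onto origins in G1, then fires origins and copies its DNA in S phase, and later condenses, aligns and separates the chromosomes in mitosis. Genes of the first steps are textbook targets of E2F factors. Mitosis genes carry a promoter element called the cell cycle homology region (CHR), through which the DREAM complex silences them in resting cells. Adult muscle fibres do not divide, and in damaged muscle the dividing cells include myoblasts, macrophages, fibro-adipogenic progenitors and endothelial cells. In bulk RNA, fewer cells of a type and less RNA per cell cannot be told apart.

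The promoters are shown first because the role groups differed in them. RefSeq windows of 300 bases (250 before to 50 after a start site, GRCm38.p6) were found for 41 of the 53 members. The 3 motifs searched on both strands were the CHR (TTTGAA or TTCGAA), the E2F site (TTTCGCGC, TTTGGCGC, TTTCCCGC or TTTGCCGC) and the CCAAT box. Matches may overlap each other, as E2F matches did in Mcm5 and Mcm6. The windows below are those of the tested mitosis gene with the largest rise (Cdk1), a spindle motor gene that rose under every alternative (Kif11), the mitosis gene that fell (Aurka) and the tested replication genes with the largest rises (Rrm2 and Cdt1). Capitals mark the motif matches on either strand.
Cdk1: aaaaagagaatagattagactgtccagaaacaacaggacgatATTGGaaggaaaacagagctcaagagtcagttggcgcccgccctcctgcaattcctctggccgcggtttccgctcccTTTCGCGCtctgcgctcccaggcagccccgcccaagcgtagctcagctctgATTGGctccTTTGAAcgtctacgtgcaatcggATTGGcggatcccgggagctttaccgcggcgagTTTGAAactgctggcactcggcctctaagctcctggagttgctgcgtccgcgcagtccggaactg
Kif11: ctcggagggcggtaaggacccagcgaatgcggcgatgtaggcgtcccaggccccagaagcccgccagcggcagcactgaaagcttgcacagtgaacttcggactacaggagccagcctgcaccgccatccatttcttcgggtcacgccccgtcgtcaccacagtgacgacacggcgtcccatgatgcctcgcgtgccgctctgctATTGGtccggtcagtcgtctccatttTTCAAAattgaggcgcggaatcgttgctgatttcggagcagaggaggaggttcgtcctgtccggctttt
Aurka: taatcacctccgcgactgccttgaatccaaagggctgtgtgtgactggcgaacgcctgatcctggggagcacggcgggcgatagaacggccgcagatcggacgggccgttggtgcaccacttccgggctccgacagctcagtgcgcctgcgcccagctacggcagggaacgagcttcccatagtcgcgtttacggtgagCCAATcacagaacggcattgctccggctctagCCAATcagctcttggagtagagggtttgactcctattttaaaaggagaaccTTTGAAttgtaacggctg
Rrm2: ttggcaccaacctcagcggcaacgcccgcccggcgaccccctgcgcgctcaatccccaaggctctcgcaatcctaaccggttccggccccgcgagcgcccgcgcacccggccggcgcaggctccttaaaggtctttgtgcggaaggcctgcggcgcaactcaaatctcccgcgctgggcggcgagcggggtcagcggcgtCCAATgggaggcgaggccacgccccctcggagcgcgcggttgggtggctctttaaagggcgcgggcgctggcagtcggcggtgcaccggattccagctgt
Cdt1: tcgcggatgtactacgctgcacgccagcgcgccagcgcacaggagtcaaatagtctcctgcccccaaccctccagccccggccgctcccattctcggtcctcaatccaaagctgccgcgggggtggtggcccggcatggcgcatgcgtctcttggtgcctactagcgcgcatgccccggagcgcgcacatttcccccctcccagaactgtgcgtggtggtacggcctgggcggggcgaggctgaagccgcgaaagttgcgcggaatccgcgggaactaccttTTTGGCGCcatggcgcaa
These windows lie at chr10:69352863-69353162 (minus strand) for Cdk1, chr19:37376132-37376431 (plus) for Kif11, chr2:172370521-172370820 (minus) for Aurka, chr12:24708004-24708303 (plus) for Rrm2 and chr8:122567765-122568064 (plus) for Cdt1.

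The CHR letters occurred in 16 of 20 mitosis genes (80%) and in 3 of 15 replication genes (20%), against 21.7% of all 27025 genes with a window. The E2F letters were distributed the other way, in 7 of 15 replication genes (46.7%) and 2 of 20 mitosis genes (10%), against 2.60% of all genes. The CCAAT box occurred in 18 of 20 mitosis genes (90.0%), 10 of 15 replication genes (66.7%) and 41.1% of all genes. Top2a, the enzyme that untangles sister DNA, and Mki67, the standard marker of dividing cells, both held CHR and CCAAT letters. Aurka held both as well, with the CHR letters starting 33 bases after the start site. A match is a description of the letters and not a bound site.

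The labels were checked with Dmd, which ran from 228 to 244 CPM in WT and from 35.2 to 56.4 CPM in mdx/mTR (CPM, reads relative to the size of the library, with sizes scaled by the trimmed mean of M-values, TMM). Library totals were 35136327 to 60330410 counts. Both ends are mdx/mTR libraries, and the largest WT library had 40981012. The 53 members together took 6890 to 8541 counts in a WT library and 8899 to 20804 in an mdx/mTR library. These are raw counts, not scaled for library size, and scaled sums overlapped between the groups. Summed replication genes reached 128.8 CPM in WT replicate 4, above the 119.8 CPM of mdx/mTR replicate 1. Summed mitosis genes reached 35.54 CPM in WT replicate 2, above the 22.01 CPM of mdx/mTR replicate 1. The highest sums were those of mdx/mTR mice, 144.3 CPM for replication and 67.05 CPM for mitosis. Each value below carries the counting error of its own reads. Members that pass a filter on low counts through their mdx/mTR levels alone tend to be higher there, so counts and medians over tested members are descriptions.

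Replication and mitosis genes were mostly higher in mdx/mTR muscle, by a larger ratio for mitosis genes, and a few of both kinds were lower. Of the 47 members that passed the filter, 28 rose and 4 fell at an adjusted p below 0.05 (edgeR quasi-likelihood test, Benjamini-Hochberg over 13937 genes). Of all tested genes 48.3% were called, 25.0% higher and 23.4% lower. At an adjusted p below 0.01, 6 of the 47 members and 2375 of the 13937 genes were higher. At that threshold the share of members that rose was below that of all genes. Among replication genes 10 of 18 rose and 3 fell, and among mitosis genes 11 of 18 rose and 1 fell. The G1 group had 3 of 7 higher and 0 lower, and all 4 genes of several phases rose. The median log2 fold change was 0.48 for replication genes and 1.20 for mitosis genes, against 0.01 over all tested genes. It was 0.36 for the G1 group and 1.75 for the genes of several phases. The gap between the mitosis and replication medians narrowed to 0.40 without mdx/mTR replicate 2, and also narrowed under a stricter filter on low counts. In log2(CPM + 0.5) averaged over the 18 tested genes of each role, the group difference for mitosis exceeded that for replication by 0.23.

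**Figure D1:**
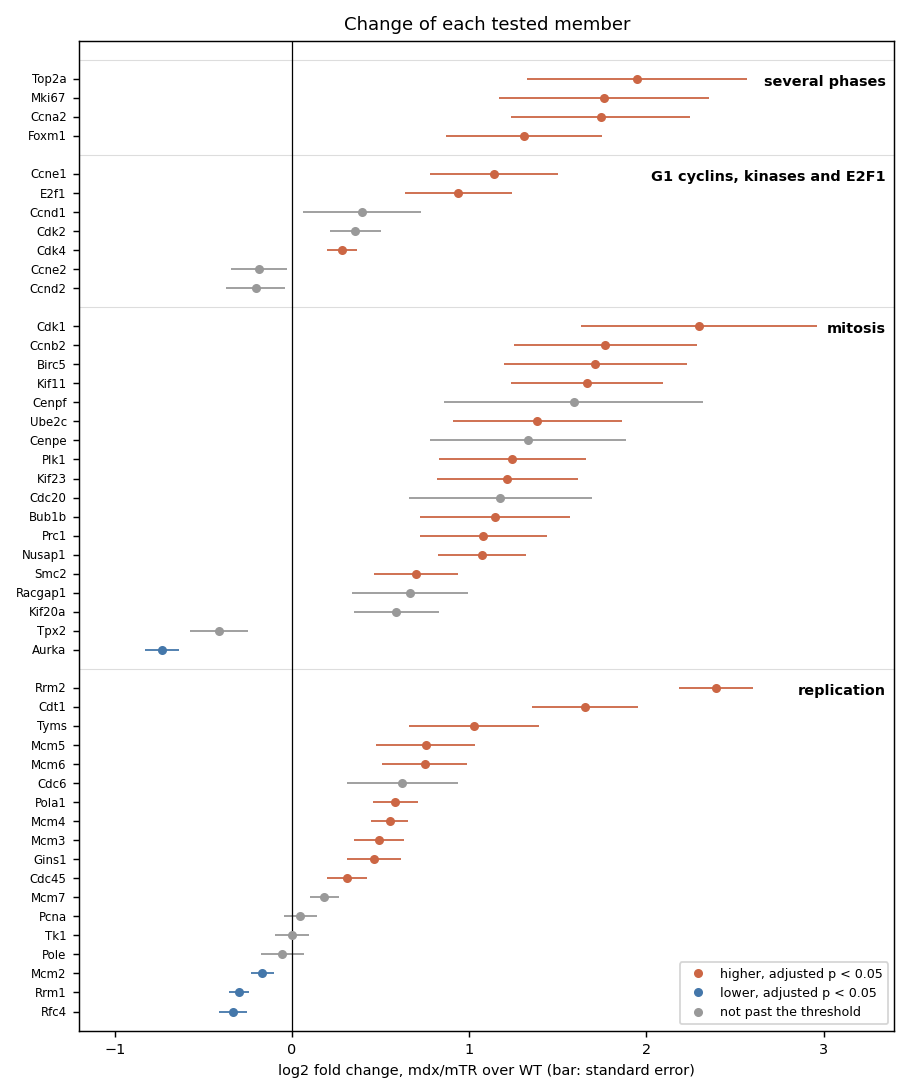
Ratio of mdx/mTR to WT on the log2 scale (horizontal axis) for the 47 tested members, grouped by role, with the standard error as a bar and the edgeR call as colour. Replication genes spread from -0.33 (Rfc4) to 2.39 (Rrm2), and most mitosis genes lie above 1, with Aurka at -0.73.

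These counts depended on single mice. Without mdx/mTR replicate 2, 15 of 47 tested members rose, among them 5 of 18 mitosis genes. In that fit 3205 of 13982 genes rose, a share near that of the mitosis genes. The filter was applied anew in each such fit, so the number of genes tested varied. Without WT replicate 2, 17 of 19 tested mitosis genes rose, without mdx/mTR replicate 1, 17 of 21, and without mdx/mTR replicate 6, 18 of 22. Over all genes, 3462 to 3562 rose in these fits, of 14003 to 14044 tested. Another fit left out WT replicate 2 and mdx/mTR replicates 2 and 5 together, a choice made after their levels were seen. In it 20 of 47 tested members rose, among them 5 of 18 replication genes and 11 of 18 mitosis genes. Over all genes, 3001 of 13979 rose, a share near that of the replication genes. Some members kept the same call under every alternative in which they were tested, the stricter threshold of 0.01 aside. Those higher were Rrm2, Cdt1, Mcm4, Pola1, Cdk1, Ccnb2, Birc5, Kif11, Nusap1 and Ccna2, and those lower were Rrm1 and Aurka. Of these, Cdk1, Ccnb2, Birc5 and Ccna2 did not pass 0.01 (edgeR adjusted p 0.0114 to 0.0138). These and Cdt1 did not enter the fit with the stricter filter on low counts.

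In the authors' deposited table, all 28 members that rose here and all 4 that fell have an adjusted p below 0.05 in the same direction. That table rests on the same libraries, so it is not an independent check. It also calls 4 members higher and 1 lower that missed the threshold here, and 4 higher that were not tested here. Its log2 fold changes were smaller for some members, such as Cdk1 (1.12, here 2.30) and Mki67 (0.97, here 1.76). For others they were close, such as Rrm2 (2.22, here 2.39).

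Rrm2, the small subunit of ribonucleotide reductase that makes DNA precursors in S phase, had the largest rise of the 47 tested members and lies at chr12:24708241-24714146 (plus strand, GENCODE M21 on GRCm38). In WT it ran from 0.695 CPM to 1.84 CPM with a median of 1.10, and in mdx/mTR from 4.57 to 8.18 CPM with a median of 5.85. The groups were far apart, with mdx/mTR replicate 2 highest and replicate 6 lowest. The log2 fold change was 2.39 ± 0.21 (SE, edgeR adjusted p 1.92e-06), higher in 6 of 6 mdx/mTR mice than in any WT mouse. Rrm1, the large subunit, went the other way. It ran from 48.5 to 55.1 CPM in WT (median 53.7) and from 39.4 to 47.1 CPM in mdx/mTR (median 42.5), without overlap, and fell by 0.30 on the log2 scale (SE 0.06, edgeR adjusted p 7.70e-04). Per kilobase of transcript, the WT mean level was 13.2 CPM for Rrm1 and 0.533 CPM for Rrm2, and the mdx/mTR mean level was 10.7 CPM and 2.80 CPM. The level of Rrm2 thus came closer to that of Rrm1 but stayed below it.

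The other genes of nucleotide supply differed among themselves. Tyms, which makes thymidylate, averaged 0.526 ± 0.353 CPM over the 6 WT mice and 1.08 ± 0.379 CPM over the 6 mdx/mTR mice (mean ± SD), with a log2 fold change of 1.03 (edgeR adjusted p 0.0316). Its call was lost in 8 of the 12 edgeR fits that left out 1 mouse (WT 1, 3, 4, 5 or 6, or mdx/mTR 2, 3 or 5), with an adjusted p of up to 0.0714. Tk1, the thymidine kinase of the salvage route, had 4.25 ± 0.405 CPM over WT mice and 4.25 ± 0.422 CPM over mdx/mTR mice, and its log2 fold change of 0.00 ± 0.09 (SE) changed sign in many alternatives.

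Among the licensing genes, Cdt1, which loads the helicase onto origins, rose most. It ran from 0.416 to 0.639 CPM in WT (median 0.594) and from 0.750 to 3.09 CPM in mdx/mTR (median 1.70). All 6 mdx/mTR mice were above all WT mice, with mdx/mTR replicate 1 lowest and replicate 5 highest. The log2 fold change was 1.65 ± 0.30 (SE, edgeR adjusted p 5.68e-04). Cdc6, its partner in loading, had medians of 0.430 and 0.744 CPM and did not pass (0.62 ± 0.31 SE, edgeR adjusted p 0.114; 0.0440 without mdx/mTR replicate 1).

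The 6 Mcm genes encode the subunits of a single ring, the replicative helicase, and they did not move as 1. Mcm4 rose from 5.29 ± 0.431 to 7.76 ± 1.33 CPM (SD, n = 6 each), without overlap, a difference of 0.55 ± 0.11 (log2, SE; edgeR adjusted p 8.16e-04). Mcm3 (0.49), Mcm5 (0.75) and Mcm6 (0.75) also rose in the edgeR fit, with adjusted p of 0.0102, 0.0391 and 0.0183. All 3 lost the call without WT replicate 2 and mdx/mTR replicates 2 and 5, at log2 fold changes of 0.24, 0.42 and 0.46, and Mcm5 also lost it without WT 1, 3, 4 or 5 or mdx/mTR 2, 3 or 5. Mcm7 went from 8.07 ± 0.955 to 9.16 ± 0.675 CPM and missed the threshold (0.18 ± 0.08 SE, edgeR adjusted p 0.0806). For Mcm7, 34.2% of the 50-base stretches of its transcript are found in another gene too, which leaves its level uncertain, and without WT replicate 1 its adjusted p was 0.0131.

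Mcm2 was the exception in direction. It ran from 12.5 to 14.7 CPM in WT (median 14.2) and from 10.6 to 13.0 CPM in mdx/mTR (median 12.7), with overlap. It fell by 0.17 on the log2 scale (SE 0.07, edgeR adjusted p 0.0487), and the call was lost in 15 of 21 alternatives, among them the fits without WT 1, 3, 4 or 5 or without mdx/mTR 1, 3, 4, 5 or 6. Per kilobase of transcript, the WT mean level was 4.12 CPM for Mcm2, 2.72 for Mcm7, 1.47 for Mcm4, 1.37 for Mcm3, 0.888 for Mcm6 and 0.519 for Mcm5. In mdx/mTR it was 3.67, 3.09, 2.16, 1.93, 1.5 and 0.878 CPM in the same order, so the order of the 6 was the same in both groups and the ratio of highest to lowest was smaller.

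Of the fork genes, Pola1, the catalytic subunit of the polymerase that starts each strand, rose without overlap. It ran from 1.72 to 2.08 CPM in WT (median 1.92) and from 2.33 to 3.62 CPM in mdx/mTR (median 2.78), with a log2 fold change of 0.58 ± 0.13 (SE, edgeR adjusted p 0.00216). Cdc45 (0.31, adjusted p 0.0336) and Gins1 (0.46, adjusted p 0.0215), which join the Mcm ring to form the active helicase, rose by less, and Cdc45 lost its edgeR call without WT 2, 3, 4 or 6 or mdx/mTR 1, 2, 4 or 5. Gins1 lost it with 3 mice left out (WT 2, mdx/mTR 2 and 5). Pole, the leading-strand polymerase, did not pass (-0.05 ± 0.12 SE, edgeR adjusted p 0.736). Nor did Pcna, the sliding clamp, at 8.16 ± 0.680 CPM over the 6 WT mice and 8.43 ± 1.15 CPM over the 6 mdx/mTR mice (mean ± SD), of whose stretches 31.8% are shared, mainly with a pseudogene.

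Rfc4, a subunit of the loader that puts Pcna on DNA, ran from 7.23 to 8.73 CPM in WT (median 8.16) and from 5.75 to 7.30 CPM in mdx/mTR (median 6.23). Only mdx/mTR replicate 3 reached the WT range. It fell by 0.33 on the log2 scale (SE 0.08, edgeR adjusted p 0.0031), a call lost when library totals alone set the scale. Of its exon bases, 12.7% overlap Eif4a2 on the opposite strand, and strand handling is not given in the sources used here. Gins2 had 183 counts in all and did not pass the filter, and 70.3% of its stretches are shared, mainly with the overlapping gene Gse1.

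The tested mitosis genes with the largest rises were those of the kinase that drives entry into mitosis. Cdk1, the kinase, ran from 0.0278 to 0.586 CPM in WT (median 0.303) and from 0.279 to 3.72 CPM in mdx/mTR (median 1.02). The ranges overlapped, and mdx/mTR replicate 2 at 3.72 CPM stood far above the next mouse at 1.48 CPM. The log2 fold change was 2.30 ± 0.67 (SE, edgeR adjusted p 0.0114), and 1.61 in the lowest of the fits without 1 mouse. Ccnb2, a cyclin partner of Cdk1, ran from 0.111 to 0.726 CPM in WT (median 0.239) and from 0.262 to 2.21 CPM in mdx/mTR (median 0.874), a rise of 1.77 ± 0.51 (SE, edgeR adjusted p 0.0116). The other B-type cyclin, Ccnb1, had 95 counts over all 12 libraries and was not tested.

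**Figure D2:**
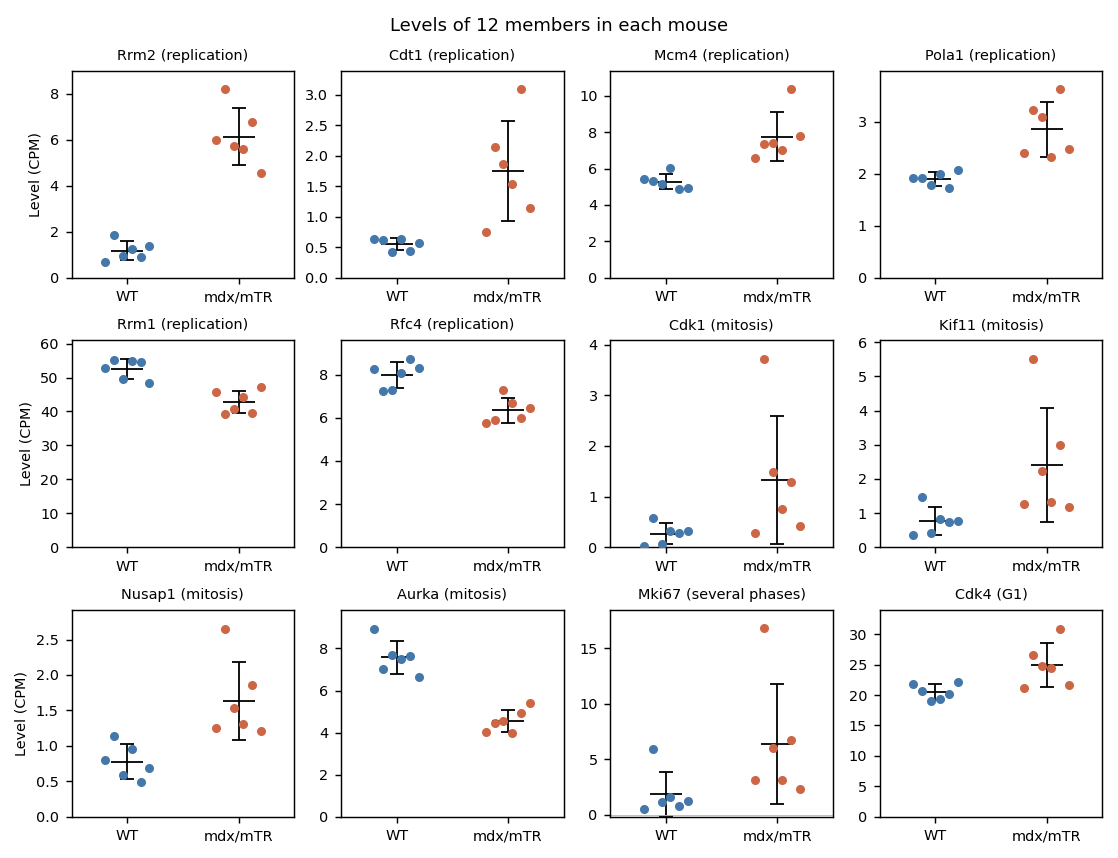
Level in CPM (vertical axis) of 12 members in the 6 WT and 6 mdx/mTR mice, as points ordered by replicate number, with the group mean and SD in black. Rrm2, Cdt1, Mcm4, Pola1 and Nusap1 are higher and Rrm1 and Aurka lower in mdx/mTR without overlap, while Cdk1, Kif11, Mki67, Rfc4 and Cdk4 overlap.

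Aurka, a kinase of centrosomes and spindle poles at chr2:172356190-172370535 (minus strand), had the largest fall of the tested members. It ran from 6.65 to 8.95 CPM in WT (median 7.57) and from 3.97 to 5.39 CPM in mdx/mTR (median 4.51). All mdx/mTR mice were below all WT mice, and none of its stretches or exon bases is shared with another gene in GENCODE M21. It fell by 0.73 on the log2 scale (SE 0.10, edgeR adjusted p 4.34e-05), and by 0.68 to 0.79 in the fits without 1 mouse. Tpx2, which activates this kinase on the spindle, had 4.13 ± 0.469 CPM over the 6 WT mice and 3.10 ± 0.881 CPM over the 6 mdx/mTR mice (mean ± SD) and missed the threshold (-0.41 ± 0.16 SE, edgeR adjusted p 0.0506). Without mdx/mTR replicate 2, its log2 fold change was -0.57 and its adjusted p 0.00387. In WT, Aurka and Tpx2 had the highest mean levels per kilobase of the 18 tested mitosis genes, 3.97 and 0.945 CPM, against a median of 0.207 CPM.

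Other spindle genes rose. Kif11, the motor that separates the spindle poles, ran from 0.361 to 1.48 CPM in WT (median 0.749) and from 1.18 to 5.51 CPM in mdx/mTR (median 1.79). Only WT replicate 2 reached into the mdx/mTR range. Its log2 fold change was 1.67 ± 0.43 (SE, edgeR adjusted p 0.00585). Nusap1, which bundles spindle microtubules, ran from 0.496 to 1.15 CPM in WT (median 0.745) and from 1.21 to 2.66 CPM in mdx/mTR (median 1.42), the only mitosis gene that was higher without overlap (1.07 ± 0.25 SE, edgeR adjusted p 0.00284). Over all members, groups were apart for 6 higher and 2 lower genes of 47, against 12.6% of all tested genes in each direction and 25.2% in either. The share that was higher is near that background, and the share that was lower is below it.

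The remaining mitosis genes that rose did so by 0.70 to 1.71 on the log2 scale. They were Birc5 (1.71) of the chromosomal passenger complex, Ube2c (1.38), an enzyme of the anaphase-promoting complex, the kinase Plk1 (1.24), Kif23 (1.22) and Prc1 (1.08) of the central spindle, the checkpoint gene Bub1b (1.15) and Smc2 (0.70) of condensin. Each had an edgeR adjusted p between 0.0138 and 0.0372. Without mdx/mTR replicate 2, all but Birc5 lost the call, with Kif23 at 0.80 and Prc1 at 0.66. Bub1b also lost it without WT 1, 3, 4, 5 or 6 or mdx/mTR 3 or 5, Smc2 without WT 1, 3 or 5 or mdx/mTR 3 or 5, Ube2c without WT 1, 3 or 6, Plk1 without WT 3 or 5, and Prc1 without WT 1. Ube2c overlaps Tnnc2, a troponin gene of fast muscle, over 22.8% of its exon bases on the opposite strand. Of the 53 members, 16 share over 10% of their 50-base stretches with other genes, which leaves their levels uncertain. Among them are Ccnb1 (42.1%), Kif20a (31.2%), Ccnd1 (27.2%), Prc1 (26.6%), Ccne2 (17.4%) and Ccna2 (15.9%).

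Those that missed the threshold were Cdc20 (1.18), the activator of the anaphase-promoting complex, the kinetochore genes Cenpe (1.33) and Cenpf (1.59), Kif20a (0.59) and Racgap1 (0.67), both of cytokinesis, beside Tpx2. Their standard errors ran up to 0.73, and without WT replicate 2 each of the first 5 passed. For Cenpf, WT replicate 2 had 1.95 CPM against at most 0.478 CPM in the other WT mice, and the log2 fold change without it was 2.94 (edgeR adjusted p 0.00242). The mitosis genes Aurkb, Ttk, Bub1 and Ncapg, like Ccnb1, did not pass the filter, with 95 to 259 counts over all libraries. In a fit with no filter, Gins2, Ccnb1, Aurkb and Bub1 rose (log2 fold changes 1.72 to 2.63), and Ttk (1.47, edgeR adjusted p 0.126) and Ncapg (1.68, edgeR adjusted p 0.0586) did not pass.

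Genes of several phases behaved like mitosis genes. Mki67 ran from 0.50 to 5.95 CPM in WT (median 1.21) and from 2.32 to 16.8 CPM in mdx/mTR (median 4.61). WT replicate 2, at 5.95 CPM, was above 3 mdx/mTR mice, and its next WT neighbour had 1.65 CPM. The log2 fold change was 1.76 ± 0.59 (SE, edgeR adjusted p 0.0245) and reached 2.56 without WT replicate 2. The call was lost without mdx/mTR replicate 2 (1.18, edgeR adjusted p 0.0828) and without WT replicates 3, 5 or 6. Top2a ran from 0.222 to 3.43 CPM in WT (median 0.687) and from 1.29 to 9.12 CPM in mdx/mTR (median 3.69), a rise of 1.95 ± 0.62 (SE, edgeR adjusted p 0.0188; 0.0534 without mdx/mTR replicate 2).

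Ccna2, the cyclin of S phase and G2, ran from 0.287 to 1.42 CPM in WT (median 0.515) and from 0.655 to 4.88 CPM in mdx/mTR (median 1.75), a rise of 1.74 ± 0.51 (SE, edgeR adjusted p 0.0114). Foxm1, the factor that drives mitosis genes, ran from 0.306 to 1.42 CPM in WT (median 0.466) and from 0.769 to 3.50 CPM in mdx/mTR (median 1.23), a rise of 1.31 ± 0.44 (SE, edgeR adjusted p 0.0239). The Foxm1 call was lost without mdx/mTR replicate 2 (0.87, edgeR adjusted p 0.0716) and without WT replicates 1, 3 or 6. In all 4 genes WT replicate 2 was the highest WT mouse and mdx/mTR replicate 2 the highest mdx/mTR mouse.

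In the G1 group the genes of the restriction point differed. Cdk4, the kinase partner of D-type cyclins, ran from 18.99 to 22.2 CPM in WT (median 20.4) and from 21.2 to 30.9 CPM in mdx/mTR (median 24.6), a small rise of 0.28 ± 0.08 (SE, edgeR adjusted p 0.0144). Its call was lost with WT replicate 2 and mdx/mTR replicates 2 and 5 left out, and 19.7% of its exon bases overlap Tspan31 on the opposite strand. The D-type cyclins themselves did not pass. Ccnd1 averaged 11.1 ± 4.14 CPM over the 6 WT mice and 14.6 ± 8.69 CPM over the 6 mdx/mTR mice (mean ± SD; 0.40 ± 0.33 SE, edgeR adjusted p 0.345). It was highest in the same mice as the mitosis genes, at 18.3 CPM in WT replicate 2 and 30.04 CPM in mdx/mTR replicate 2. Ccnd2 averaged 13.9 ± 3.41 and 12.04 ± 2.65 CPM (-0.20 ± 0.17 SE, edgeR adjusted p 0.335).

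Of the E-type cyclins, which start S phase, Ccne1 ran from 0.167 to 0.522 CPM in WT (median 0.297) and from 0.311 to 1.15 CPM in mdx/mTR (median 0.703), a rise of 1.14 ± 0.36 (SE, edgeR adjusted p 0.0178; 0.193 without WT replicate 2 and mdx/mTR replicates 2 and 5). Ccne2 averaged 2.78 ± 0.607 CPM over WT mice and 2.44 ± 0.413 CPM over mdx/mTR mice and did not pass (-0.19 ± 0.16 SE, edgeR adjusted p 0.347). E2f1, the factor that turns on replication genes, ran from 0.50 to 1.31 CPM in WT (median 1.04) and from 0.884 to 2.83 CPM in mdx/mTR (median 1.68), a rise of 0.94 ± 0.30 (SE, edgeR adjusted p 0.0199; 0.0503 without mdx/mTR replicate 2). Cdk2, the partner of E-type cyclins, averaged 5.22 ± 0.554 and 6.70 ± 1.62 CPM and missed the threshold (0.36 ± 0.14 SE, edgeR adjusted p 0.0544). Without mdx/mTR replicate 1 or 4 it passed.

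Replication and mitosis genes also differed in which mice were high. Of the 23 mitosis genes, 21 were highest among WT mice in WT replicate 2, and 21 were highest among mdx/mTR mice in replicate 2. Of the 19 replication genes, 11 were highest in mdx/mTR replicate 5, 4 in replicate 2, and WT replicate 2 led for 7. The lowest mdx/mTR mice were replicates 1 and 6 in 21 and 25 of the 53 members.

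The mean of log2(CPM + 0.5) over the 18 tested replication genes was 1.93 to 2.08 among WT mice and 2.11 to 2.62 among mdx/mTR mice. Over the 18 tested mitosis genes it was 0.25 to 1.02 among WT mice and 0.55 to 1.89 among mdx/mTR mice. The mitosis mean of WT replicate 2, 1.02, was above those of mdx/mTR replicates 1 (0.56), 4 (0.70) and 6 (0.55). The replication means of the groups were apart by a narrow margin only, with WT replicate 2 at 2.08 and mdx/mTR replicate 1 at 2.11. Rrm2, at 1.84 and 5.98 CPM in these mice, is among the 18 genes, and separation without it was not tested. Summed replication CPM, in which Rrm1 weighs most, overlapped: WT replicate 4 had 128.8 and mdx/mTR replicate 1 had 119.8. The difference of the means, mitosis minus replication, was -1.06 in WT replicate 2 and -1.72 to -1.54 in the other WT mice. In mdx/mTR it was -0.64 in replicate 2, -1.17 in replicate 3, -1.39 in replicate 5 and -1.59 to -1.55 in replicates 1, 4 and 6. Of these, only replicate 2 was outside the WT range.

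**Figure D3:**
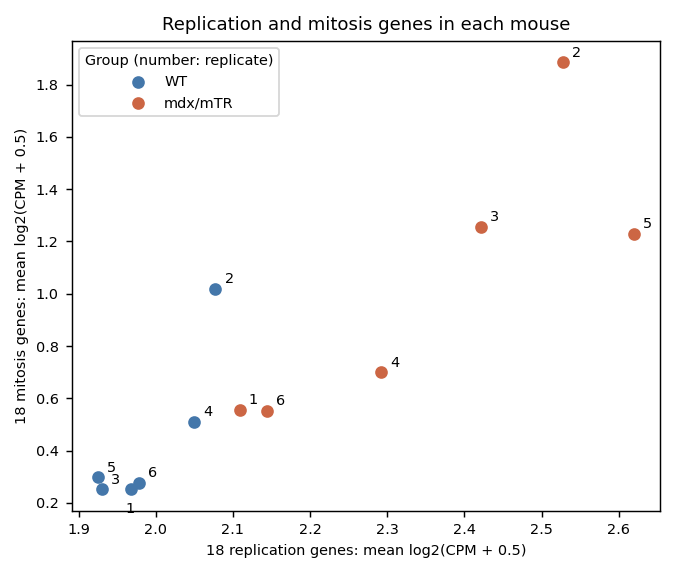
Mean log2(CPM + 0.5) of the 18 tested replication genes (horizontal axis) and of the 18 tested mitosis genes (vertical axis) in each mouse, numbered by replicate. The mdx/mTR mice spread from 2.11 to 2.62 and from 0.55 to 1.89, and WT replicate 2 has a mitosis mean of 1.02, above 3 mdx/mTR mice.

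The median log2 fold change of the mitosis genes exceeded that of the replication genes by 0.72 with all mice, by 0.40 without mdx/mTR replicate 2 and by 1.05 without WT replicate 2. Mitosis genes varied more within groups: the median coefficient of variation was 51.0% in WT and 61.2% in mdx/mTR, against 10.1% and 17.3% for replication genes. They also had fewer counts, with a median WT level of 0.650 CPM against 4.01 CPM. The part of level in the difference between the roles was not tested.

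**Figure D4:**
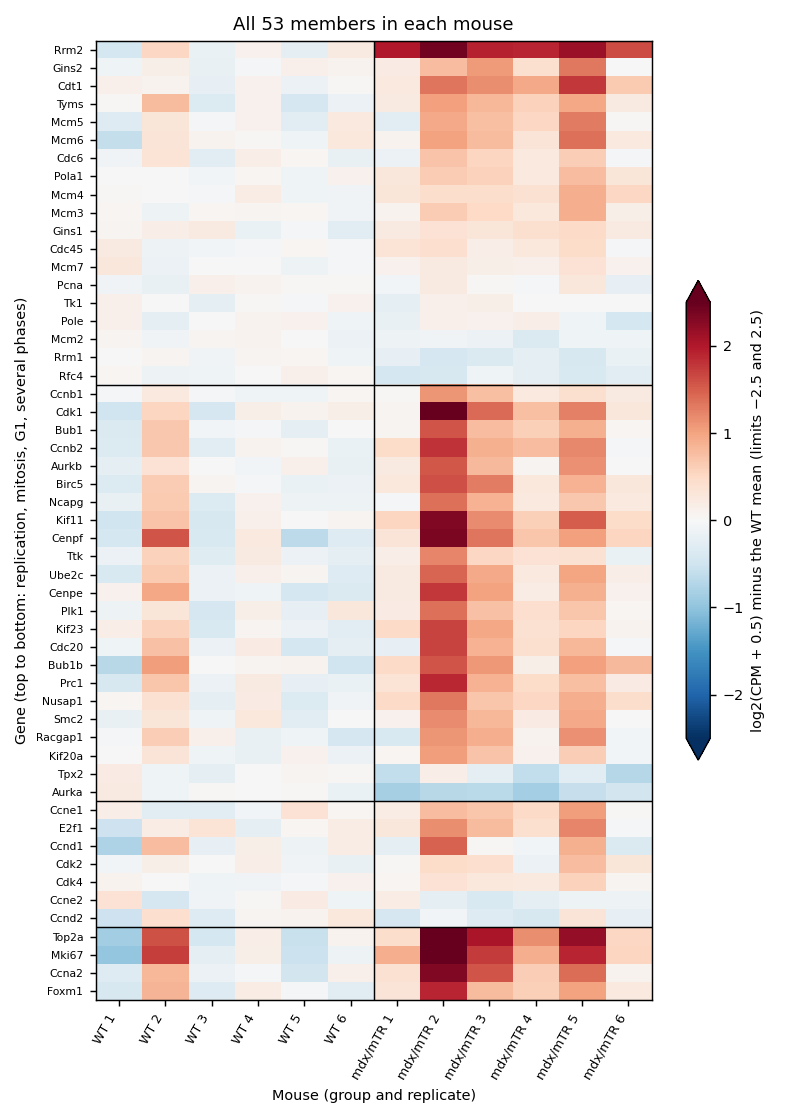
Difference of log2(CPM + 0.5) from the WT mean (colour, limited at the ends of the scale) for all 53 members (rows, by role and then by ratio of group means) in the 12 mice (columns). Rrm2 is high in all 6 mdx/mTR mice, Aurka and Rrm1 are low in them, and the mitosis rows are darkest in mdx/mTR replicate 2, with a weaker band in WT replicate 2.

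Further genes of the same processes, from lists chosen by function, follow, beside the median of 0.01 over all tested genes. Of 40 other replication genes, 39 were tested, 12 rose and 5 fell, with a median log2 fold change of 0.15. The share that rose is near the 25.0% of all tested genes, and the share that fell is below their 23.4%. With WT replicate 2 and mdx/mTR replicates 2 and 5 left out, 6 of 39 rose, against 3001 of 13979 genes. Dnmt1, which copies DNA methylation at forks, rose from 15.9 ± 1.16 to 21.5 ± 2.44 CPM (0.43, edgeR adjusted p 4.33e-04), and Pole2, a subunit of the polymerase of Pole, by 0.97 (adjusted p 8.14e-04). Orc3 (-0.30) and Orc5 (-0.21) of the origin recognition complex fell, as did Pold2 (-0.34), a subunit of the lagging-strand polymerase, and Rfc1 (-0.22) of the clamp loader. Gmnn, the inhibitor of Cdt1, was the fifth that fell (-0.42).

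Of 50 other mitosis genes, 39 were tested, 19 rose and 1 fell, with a median of 0.70. Without mdx/mTR replicate 2, 9 of 39 rose, a share near that of all genes (3205 of 13982). With WT replicate 2 and mdx/mTR replicates 2 and 5 left out, 11 of 36 tested did, against 3001 of 13979 genes. Smc4, the condensin partner of Smc2, rose from 11.02 ± 1.26 to 17.9 ± 2.21 CPM (0.70, edgeR adjusted p 6.44e-05), and Cks1b, a small subunit of the cyclin-dependent kinases, by 0.75 (adjusted p 9.15e-04). The gene that fell was Pttg1, the securin gene, from 49.7 ± 2.37 to 39.3 ± 4.18 CPM (-0.34, edgeR adjusted p 9.89e-04).

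Of 18 E2F, Rb and DREAM genes, which regulate the members, 17 were tested, 5 rose and 4 fell, with a median of 0.12. These shares are near those of all tested genes (25.0% higher and 23.4% lower). E2f2, an activator, rose from 4.79 ± 1.15 to 15.6 ± 1.84 CPM (1.70, edgeR adjusted p 9.54e-07), and Rbbp4, a DREAM subunit, from 84.6 ± 2.42 to 112 ± 3.59 CPM (0.41, adjusted p 3.06e-06). E2f6, a repressor, fell from 214 ± 4.88 to 121 ± 14.8 CPM (-0.82, edgeR adjusted p 1.97e-06). E2f3 (-0.44), another activator, fell as well, as did E2f4 (-0.32) and Rbl2 (-0.27) of DREAM. The repressors E2f7 (1.16, edgeR adjusted p 0.00449) and E2f8 (2.48, adjusted p 8.18e-04) rose, and so did Rb1 (0.13, adjusted p 0.0343), so activators and repressors were found in both directions.

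Most markers of macrophages, fibro-adipogenic progenitors and myoblasts were higher in mdx/mTR muscle and most endothelial markers were lower. Over all tested genes, 25.0% were higher and 23.4% lower. The part of these cell types in the result was not tested. Of 12 macrophage markers 11 rose and Cd163 did not pass, and their summed level ran from 112 to 193 CPM in WT and from 312 to 819 CPM in mdx/mTR, highest in replicate 5 (819) and then replicate 2 (568). Of 9 fibro-adipogenic progenitor markers 7 rose, with sums of 1041 to 1821 CPM in WT and 2411 to 4673 CPM in mdx/mTR. Those sums were highest in mdx/mTR replicates 5 (4673) and 2 (4463) and in WT replicate 2 (1821). Col1a1 and Col3a1 made up most of the sum in these mice, at 415 and 720 CPM in WT replicate 2. Among WT mice, Col1a1, Col3a1, Cd34 and Fbn1 were highest in replicate 2. Pdgfra, Dpt, Dcn and Pi16 were highest in WT replicate 4, and Ly6a in WT replicate 6. Of 10 satellite cell and myoblast markers 6 rose, led by Myog (2.46), and 1 fell, Cdh15 (-0.37, edgeR adjusted p 0.0119). Pax7, the satellite cell factor, had mean levels of 3.03 (WT) and 3.32 CPM (mdx/mTR) and did not pass. Nor did Calcr and Des.

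Of 8 endothelial markers, 0 rose and 6 fell, with sums of 598 to 749.5 CPM in WT, highest in replicate 2, and 454 to 563 CPM in mdx/mTR. The neutrophil sum ran from 0.695 to 2.22 CPM in WT and from 1.87 to 19.5 CPM in mdx/mTR, highest in replicate 5, with 2 of 3 tested markers higher and Mpo and Elane near 0. T and NK cell sums were 0.528 to 1.22 CPM and 2.34 to 5.69 CPM, with 1 of 2 tested markers higher. B cell sums were 0.361 to 2.04 CPM in WT, highest in replicate 2, and 0.628 to 1.58 CPM in mdx/mTR, with 0 of 2 tested markers called. Of the erythroid markers the 4 globin genes are listed at 0 in all libraries, and Alas2 did not pass, with the marker sum at 41.9 CPM in WT replicate 2 and 11.6 to 24.6 CPM in the other WT mice. Mature fibre markers summed to 183000 to 215000 CPM in WT and 145400 to 201500 CPM in mdx/mTR, lowest in mdx/mTR replicates 5 and 2, with 1 of 8 higher and 1 lower.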

How the data were processed

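The deposited files hold raw read counts by gene symbol for the 12 libraries and, per the file headers, the authors' comparison as a log2 fold change and an adjusted p-value for each gene. The submitters' processing notes name FastQC, STAR, DESeq2 and mm10; the counter, annotation and strand handling are not given in the sources used here. The deposited counts entered edgeR 4.0.16 (R 4.3.3): filterByExpr (13937 genes kept), TMM scaling, and a quasi-likelihood model with group as its only term, with Benjamini-Hochberg adjustment over all genes and a threshold of 0.05. The standard error is the log2 fold change divided by the square root of F. Alternatives were no filter, a filter of 1 CPM in 6 libraries, other scalings, DESeq2 1.42.0, limma-voom (limma 3.58.1), a replicate block, each mouse left out, and a threshold of 0.01. On simulated counts for 13937 genes with 200 changed 2-fold, edgeR recovered 97.5% with 11 false calls. The simulation gave every gene the same spread between mice beyond counting error. It did not model the spread of the mitosis genes (median coefficient of variation 51.0% in WT and 61.2% in mdx/mTR), so this recovery does not apply to them.

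The members, their roles and the other lists were chosen with earlier results of these data known. Named by rule were, in each role, the 3 smallest p-values, the 2 largest changes and every call against the direction of most, with Mki67, Top2a, Cdk1, Ccnd1 and Cdk4 in any case, and members not past the threshold by a value. In each list of other genes these were the 3 smallest p-values and up to 4 calls in the less common direction; other names were chosen after their values were seen. Gene positions, transcript lengths and the share of 50-base stretches that occur in other genes come from GENCODE M21, and promoters from RefSeq (GRCm38.p6). A count of 3, the 95% upper limit for a count of 0, is 0.0460 to 0.0837 CPM, counting error only. Replicate libraries differed by more than sampling noise (chi-square per degree of freedom 8.87 to 115.5). No per-sample column was left unmatched.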

Additional observations from a re-analysis of the deposited data

Results flagged for a closer look

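For each of the 47 tested members and each mean over members, Dixon's ratio (the distance of an extreme mouse to its neighbour over the full spread) was computed among the 6 mice of a group. It passed Dixon's 95% critical value in 20 of 106 cases, and 5.3 would pass by chance (1 in 20) if values were normally distributed. Members were examined in CPM, and whether these values are normally distributed was not tested. The 6 members that did not pass the filter were not examined in this way. Members vary together, so the cases are dependent. WT replicate 2 accounts for 12 of the 20 and mdx/mTR replicate 2 for 5.

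WT replicate 2 was highest for Mki67 (5.95 CPM, next 1.65), Top2a (3.43 CPM, next 0.982), Foxm1 (1.42 CPM, next 0.716) and Ccna2 (1.42 CPM, next 0.684). It was also highest for the mitosis genes Ccnb2 (0.726 CPM), Birc5 (0.642 CPM), Bub1b (2.01 CPM), Cenpe (1.17 CPM) and Cenpf (1.95 CPM), and for Tyms (1.20 CPM, next 0.557). Its mitosis mean of 1.02 and its mitosis minus replication difference of -1.06 on the log2 scale stood apart as well, with next values of 0.51 and -1.54.

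In mdx/mTR replicate 2, Cdk1 (3.72 CPM, next 1.48), Cenpf (3.72 CPM, next 1.59), Prc1 (5.30 CPM, next 2.38), Mki67 (16.8 CPM, next 6.80) and Foxm1 (3.50 CPM, next 1.66) were far above the other mdx/mTR mice. Single values stood apart for Mcm4 in mdx/mTR replicate 5 (10.4 CPM, next 7.79), Mcm2 in mdx/mTR replicate 4 (10.6 CPM, next 12.4) and Mcm7 in WT replicate 1 (9.86 CPM, next 8.12).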

How the results depend on the processing

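Of the 28 members that rose, 10 kept the call under every alternative in which they were tested (the threshold of 0.01 aside), and of the 4 that fell, 2 did. The cause of the changes below was not tested, except that the stricter filter tests fewer genes. Scaling by library totals alone called 5596 genes higher and 1560 lower and moved the median of all genes from 0.01 to 0.17. Under that scaling 2 members were lower (1 replication gene), the replication median was 0.64, and the other replication genes had 20 higher and 2 lower and the regulators 11 and 2. The stricter filter left 18 of 32 tested members higher, among them 5 of 9 mitosis genes, beside 8 other mitosis genes and 3 regulators. Of all genes, 3126 of 12190 were higher. The medians were 0.32 for replication, 0.72 for mitosis and 0.39 for their difference. At an adjusted p below 0.01, 6 members were higher (4 replication, 2 mitosis), with 4 other replication genes higher and 3 lower and 7 other mitosis genes higher. DESeq2, fitted without the filter to 23 mitosis and 50 other mitosis genes, called 18 mitosis genes higher and 2 lower, and 31 other mitosis genes higher. Median-of-ratios scaling and limma-voom also called 2 mitosis genes lower. Leaving out WT replicate 2 and mdx/mTR replicates 2 and 5, chosen after seeing the data, gave 5 replication genes higher, 2 mitosis genes lower, 6 other replication and 11 other mitosis genes higher.

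Fits that each left out 1 mouse gave 15 to 35 members higher and 3 to 5 lower. Of all genes, 3163 to 3562 were higher and 2950 to 3254 lower in these fits. Among mitosis genes 5 to 18 were higher and 1 to 2 lower, of 18 to 22 tested as the filter was applied anew. Of the other mitosis genes 9 to 27 were higher, and the difference of medians was 0.40 to 1.05. Signs changed for members near 0. Pole was 0.11 under library totals, and -0.10 to 0.024 when single mice were dropped. Pcna was -0.12 without the 3 libraries, where Ccnd1 was -0.048, and -0.012 to 0.095 with single mice dropped. Tk1 was -0.0025 with no filter, -0.0052 with median-of-ratios scaling, -0.011 in DESeq2, -0.0060 in limma-voom, -0.041 without the 3 libraries and -0.047 to 0.050 with single mice dropped.

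Same-numbered libraries of the groups had correlations of their deviations from -0.155 to 0.354, and the numbers were taken not to pair mice. Under a replicate block 31 members were higher and 3 lower (15 and 1 mitosis genes, 9 and 2 replication genes), with a difference of medians of 0.68 and Tk1 at -0.00088.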
